A study of Schizosaccharomyces pombe with 130 samples.

Results

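The genes described here lie at the right end of chromosome I of the fission yeast Schizosaccharomyces pombe. They were chosen by systematic name alone, as every gene whose identifier begins SPAC1039., SPAC869., SPAC186. or SPAC750., which gave 39 of the 7021 features counted. In the reference assembly ASM294v3 they span bases 5444851 to 5579133 of chromosome I, from 131.6 kb before the chromosome's last base up to that base.

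The study asked how much of heterochromatic silencing comes from keeping RNA polymerase II (Pol II) off the DNA, from poor RNA output of the polymerase that is bound, and from RNA degradation. Its 130 libraries measured Pol II phosphorylated on serine 2 of its repeat domain on DNA (Pol II ChIP, 31 libraries) and the RNA bound to it (Pol II RIP, 37), polyadenylated RNA (p(A) RNA, 32), total RNA (8), histone H3 dimethylated on lysine 9 (H3K9me2 ChIP, 9) and input DNA (13). All strains were grown in rich medium. Wild type was compared with deletions of clr4 (the H3K9 methyltransferase), swi6 and chp2 (HP1 proteins, which bind methylated H3), mit1 and clr3 (nucleosome remodeler and histone deacetylase of the SHREC complex), ago1 (the Argonaute of RNA interference), caf1, ccr4 and mot2 (subunits of the Ccr4-Not complex, which removes poly(A) tails), exo2 (a cytoplasmic exonuclease) and rrp6 (a nuclear exosome nuclease). The double deletions caf1Δago1Δ and caf1Δdcr1Δ (dcr1 encodes Dicer) and the double point mutant caf1*ccr4*, in which both deadenylases are catalytically dead, completed the set.

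Most genotypes were a single strain. Wild type was strain 63 (h+) and strain 65 (h90, with a 3xFLAG tag on ago1), caf1Δ was strains 510 and 591, caf1Δago1Δ was 523 and 524, and mot2Δ was 1022 and 1023. The tag on ago1 was also carried by strains 504 (rrp6Δ), 510, 530 (exo2Δ), 544 (ccr4Δ), 1022 and 1023. Strains 591 and 1168 (caf1*ccr4*) carried marker genes at left telomeres, most other strains carried ura4+ at a centromere, and strains 301 (swi6Δ) and 324 (chp2Δ) carried ura4+ at the mating-type locus. In the p(A) RNA labels strain 1168 is spelled caf1d*ccr4d*. Wild type was strain 63 only in the Pol II RIP, strain 65 only in H3K9me2, input and total RNA, and both in Pol II ChIP and p(A) RNA, and every mutant of an assay was compared with the same wild-type libraries. Mutants had, where measured, 2 to 4 libraries in Pol II ChIP, Pol II RIP and p(A) RNA, except for 1 of ccr4Δ in Pol II ChIP and 1 each of ccr4Δ and caf1Δdcr1Δ in Pol II RIP, and 2 in total RNA and 1 in H3K9me2 ChIP and input.

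Library totals were 2463636 to 23465130 counts for Pol II on DNA, 320010 to 5935793 for RNA bound to it, 2817056 to 22003055 in p(A) RNA and 3343510 to 16980568 in H3K9me2 ChIP. In the libraries labelled clr4Δ the clr4 gene gave 70.1% to 241% of its level in the other strains, and in those labelled swi6Δ the swi6 gene gave 30.8% to 173%, depending on the assay. How much of either gene was deleted is not given in the sources used here, so these values do not check the labels and both genotypes are named only as labelled. The genes ago1, rrp6, exo2, mit1 and ccr4 gave at most 18.7% in their own deletions, and caf1, mot2, chp2, clr3 and dcr1 reached 55.0% to 158% in at least 1 library.

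Subtelomeres of fission yeast lie between the telomere repeats and ordinary chromosome arms. Their heterochromatin carries H3K9me, which Clr4 deposits and HP1 proteins read, and it spreads inwards from the chromosome end. Subtelomeric genes are mostly transporters, metabolic enzymes and families repeated at several chromosome ends, and many are silent in rich medium.

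The 22 inner members (SPAC1039. and SPAC869., 131.6 to 56.0 kb from the end) and the 17 outer members (SPAC186. and SPAC750., from 50.2 kb to the last base) differed in content. Inner members were 12 enzymes, among them mel1 (SPAC869.07c, a melibiase), pcm2 (SPAC869.08, a repair methyltransferase for damaged aspartate) and the amidase SPAC869.01, 7 transporters, among them put4 (SPAC869.10c, proline), isp5 (SPAC1039.09, amino acids), cat1 (SPAC869.11, arginine and lysine) and sul2 (SPAC869.05c, sulfate), and 3 others. Outer members were 9 enzymes, among them pdc102 (SPAC186.09, pyruvate decarboxylase), SPAC186.08c (L-lactate dehydrogenase) and SPAC750.01 (an aldo/keto reductase), 1 transporter and 7 others, among them pfl9 (SPAC186.01, a cell-surface glycoprotein of the DIPSY family) and the membrane-protein family genes ftm3 (SPAC750.04c) and ftm4 (SPAC750.05c).

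How much of the outermost block could be counted depended on its sequence. Every stretch of 50 bases in SPAC750.02c, ftm3, SPAC750.07c and SPAC750.08c (17.5 kb to the last base) occurred again elsewhere in the reference genome, and these 4 members had no count in any library. The share of such recurring windows was 92.4% in ftm4, 91.8% in SPAC750.06c, 85.3% in SPAC750.03c, 62% in SPAC186.03 and 32.8% in SPAC750.01, and 0% in the other 30 counted members. A gene with few private bases is read through those bases alone, because reads with several matches were kept only in a list of heterochromatic genes that holds no member of this end. A stretch of ftm4 (coding bases 701 to 820, chrI:5566421-5566540, minus strand) and the same stretch of its closest copies at the ends of chromosomes II and I show how few bases separate them. Capitals mark the bases that are not the same in all 4 genes, and letters run 5′ to 3′ on the coding strand.
ftm4: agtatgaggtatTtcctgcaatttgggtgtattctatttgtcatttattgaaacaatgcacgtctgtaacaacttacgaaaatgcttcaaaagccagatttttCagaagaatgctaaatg
ftm5 (SPBC1348.02, chrII:8680-8799, plus strand): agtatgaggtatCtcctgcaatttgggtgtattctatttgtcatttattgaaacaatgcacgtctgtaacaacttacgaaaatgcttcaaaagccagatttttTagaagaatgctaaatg
SPBPB2B2.19c (chrII:4504125-4504244, minus strand): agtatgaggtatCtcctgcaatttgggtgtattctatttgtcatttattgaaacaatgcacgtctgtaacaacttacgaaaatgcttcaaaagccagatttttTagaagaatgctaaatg
ftm1 (SPAC977.01, chrI:30382-30501, plus strand): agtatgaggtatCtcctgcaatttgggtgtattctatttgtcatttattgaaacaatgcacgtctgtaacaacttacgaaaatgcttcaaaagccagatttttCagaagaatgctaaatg
Over the whole coding sequence of 1035 bases ftm4 differed from ftm5 and from SPBPB2B2.19c at 3 positions, and those copies did not differ from each other. The first 60 coding bases of ftm3 (chrI:5564592-5564651, minus strand) show the case with no private base, since ftm2 (SPAC977.02, chrI:32230-32289, plus strand) has the same letters.
ftm3 and ftm2: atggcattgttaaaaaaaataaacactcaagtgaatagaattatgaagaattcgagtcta
Sequences and positions are those of the RefSeq assembly ASM294v3. The files hold no coordinates, and values of ftm4, SPAC750.06c and SPAC750.03c below carry this limit: a copy at another chromosome end that differs from the reference could add to them.

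In wild-type cells H3K9me2 divided the members into 2 blocks. Counts of each library were scaled to its total, 0.5 was added, and the log2 ratio of H3K9me2 ChIP to input was taken, with 1 library per genotype and therefore no test. The 13 outer members with counts had a median log2 ratio of 5.00, from 1.96 in pfl9 to 6.15 in SPAC750.06c, against a median of -3.62 over the other protein-coding genes. The 22 inner members had a median of -3.10 and ranged from -4.15 to -0.96. The block edge lay between SPAC869.01, 56.0 kb from the end and 6.31-fold above the median of other genes, and pfl9, 50.2 kb from the end and 47.8-fold above it. All 13 outer members were more than 2-fold above that median, as were 6 of the 22 inner members, and 3.76% of all features passed the same mark.

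The 5 members highest in the mark were SPAC750.06c (log2 ratio 6.15, 871-fold above the median of other genes), pdc102 (5.50, 555-fold), SPAC750.01 (5.14, 432-fold), SPAC186.07c (5.08, 416-fold), a hydroxyacid dehydrogenase, and SPAC186.04c (5.07, 412-fold), an uncharacterized protein. For SPAC750.06c the input held 1 count and H3K9me2 held 1194, so that its rank rests on the added 0.5, while pdc102 had 70 and 35744.

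**Figure D1:**
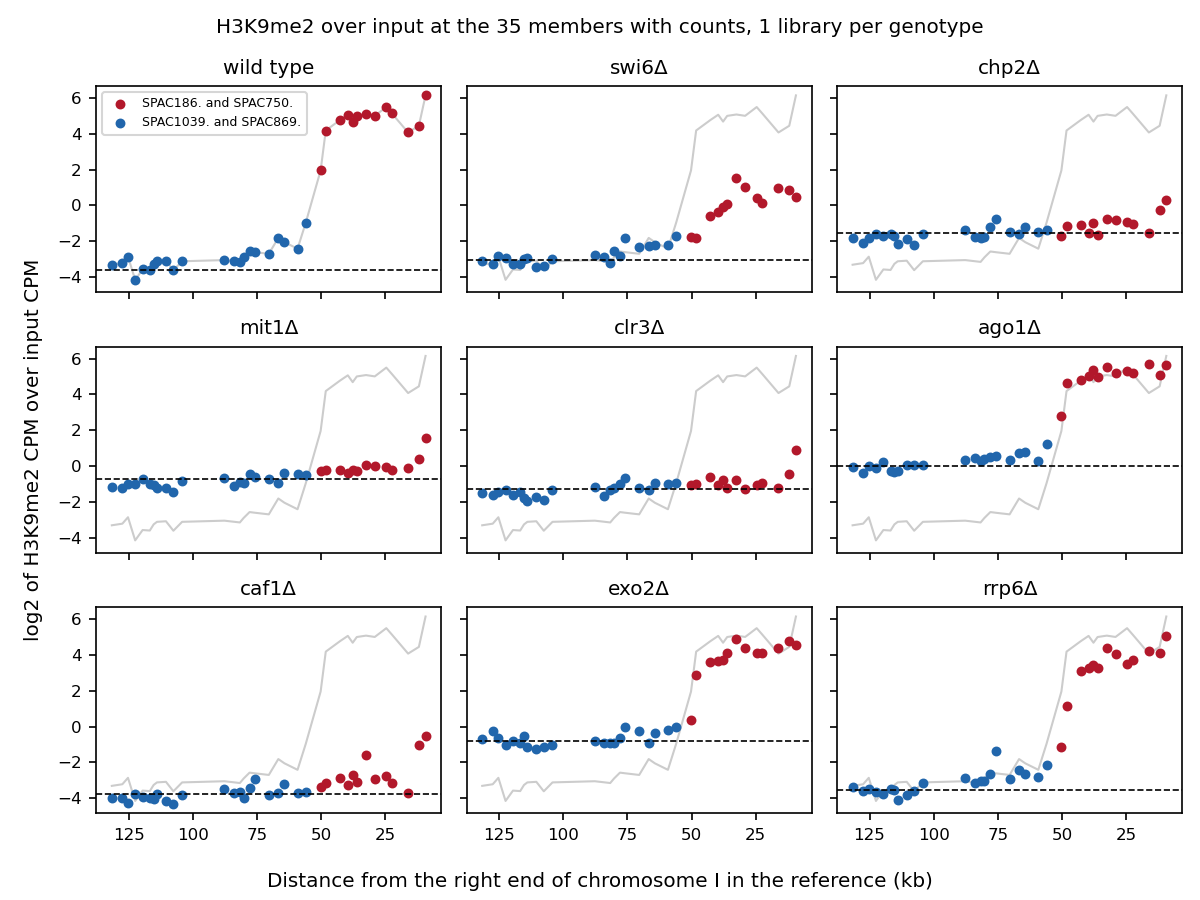
H3K9me2 ChIP over input (log2 ratio, 1 library per genotype) of each of the 35 counted members against its distance from the right end of chromosome I (kb), 1 panel per genotype, with outer members in red, inner members in blue, wild type as the grey line and the median of other protein-coding genes dashed. In wild type the 13 outer members sit at 1.96 to 6.15 and the 22 inner members at -4.15 to -0.96.

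H3K9me2 at the outer members was far lower in the mutants of swi6, chp2, mit1, clr3 and caf1. The median difference from wild type (log2) over the 13 outer members was -7.63 in caf1Δ, -5.82 in chp2Δ, -5.47 in clr3Δ, -4.98 in mit1Δ and -4.90 in the library labelled swi6Δ, and in each of these all 13 were more than 2-fold lower. The shares of all features that were more than 2-fold lower were 9.48%, 0.983%, 0.955%, 0.755% and 3.13%. In ago1Δ the median difference was 0.20 and 0 of 13 were more than 2-fold lower (0.385% of all features). In exo2Δ 6 of 13 were lower, with a median of -1.0 (0.370% of all features), and in rrp6Δ 9 of 13, with a median of -1.41 (7.24%).

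The scale of these ratios moved between libraries, and the smaller differences depend on it. The median log2 ratio of the other protein-coding genes was -3.62 in wild type, -3.77 in caf1Δ, -3.55 in rrp6Δ and -3.04 in swi6Δ, but -1.55 in chp2Δ, -1.29 in clr3Δ, -0.80 in exo2Δ, -0.74 in mit1Δ and -0.02 in ago1Δ. Relative to those medians all 13 outer members were more than 2-fold lower also in exo2Δ (median -3.82, with 6.68% of all features lower) and ago1Δ (-3.40, 11.0%), and 10 of 13 in rrp6Δ (-1.48, 8.29%). The difference for ago1Δ is therefore a matter of the scale chosen, whereas the 13 of 13 in swi6Δ, chp2Δ, mit1Δ, clr3Δ and caf1Δ stood on both scales. On the second scale the shares of all features in these mutants were 7.50%, 7.05%, 6.23%, 5.84% and 6.45%. For the centromeric dg and dh repeats, which are textbook heterochromatin, the median log2 ratio was 4.75 to 5.76 in every genotype but ago1Δ (2.05).

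The ratios left in each mutant were not even over the block. In caf1Δ SPAC750.06c kept a log2 ratio of -0.53, ftm4 -1.02 and SPAC186.07c -1.56, while the other 10 lay between -3.69 and -2.69. In rrp6Δ the ratio fell towards the inner edge, from 5.03 in SPAC750.06c and 3.52 in pdc102 to 1.12 in SPAC186.02c (a hydroxyacid dehydrogenase) and -1.16 in pfl9. In exo2Δ pfl9 was again the lowest, at 0.40, with the other 12 between 2.90 and 4.86. No H3K9me2 library of clr4Δ, ccr4Δ, mot2Δ, caf1*ccr4* or a double deletion was analysed here.

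The 2 blocks also differed in wild-type output. Levels are given in TPM, counts divided by gene length and scaled to a fixed sum over protein-coding genes, repeats and members. In Pol II ChIP the outer members had wild-type means of 1.83 to 75.3 TPM (median 33.4), and 12 of 13 lay below the 10th percentile of other protein-coding genes. The lowest were ftm4 (1.83), SPAC750.06c (4.56), SPAC186.03 (7.86) and SPAC750.03c (9.25), which hold recurring windows. Such members are read through their private bases only but divided by their whole length, which lowers their TPM. The inner members had 21.7 to 1004 TPM (median 103), with 7 of 22 below that percentile. In p(A) RNA the outer median was 0.516 TPM and the inner median 19.0 TPM. The exception in the outer block was gdt1 (SPAC186.05c, a GDT1-like membrane protein, singled out after its values were seen), with 95.5 TPM of p(A) RNA, at percentile 63.2 of other protein-coding genes.

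gdt1 also differed between wild-type libraries. Its p(A) RNA was 117, 102 and 159 TPM in the 3 libraries of strain 63 and 4.91 TPM in that of strain 65, and its Pol II ChIP level was 117 TPM in strain 63 and 33.2 TPM in strain 65. Libraries of 1 wild-type strain differed too, with 27.1 and 95.4 TPM in Pol II RIP of strain 63 and 13.2 and 0.151 TPM in total RNA of strain 65. Strain and library can therefore not be told apart at gdt1. The ago1Δ libraries, of 1 strain, also split, with p(A) RNA of 125, 14.5 and 16.1 TPM and Pol II ChIP of 138 and 37.1 TPM. In edgeR's test, described next, gdt1 was called in 0 of 12 mutants in each of the 3 assays, with 1 unadjusted p under 0.05 in Pol II ChIP, 2 in Pol II RIP and 0 in p(A) RNA, and DESeq2 gave no call either.

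Differences from wild type were tested with edgeR's quasi-likelihood test on all features, with p-values adjusted by the Benjamini-Hochberg method over all of them, and a member is called changed at an adjusted p under 0.05. In p(A) RNA 33 members were tested in 12 mutants. Of these 396 tests 83 were called higher and 12 lower, against 5.80% and 4.77% of all tests of all features. When wild type was fitted with 1 mutant at a time, 35 were called higher and 0 lower. Outer members were called higher in 43 of 132 tests (32.6%) and lower in 0 (3 at an unadjusted p under 0.05, 0 by DESeq2), and inner members higher in 40 of 264 (15.2%) and lower in 12 (4.55%). Most outer calls were of SPAC750.01 (12), ftm4 (10) and SPAC750.06c (10), which hold recurring windows. The rest were of pdc102 (5), SPAC186.02c (3), pfl9 (2) and SPAC186.08c (1), so the higher outer share rests on few genes and is not a trait of the whole block. Outer calls came from every mutant, 3 to 5 of 11 members in each, whereas inner calls upwards came only from ago1Δ, caf1Δ, ccr4Δ, caf1*ccr4*, exo2Δ and rrp6Δ. Tests of 1 member share the wild-type libraries, so the 12 mutants are not 12 independent results. Labels do not say whether replicates were separate cultures, and p-values measure only the spread between these libraries.

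**Figure D2:**
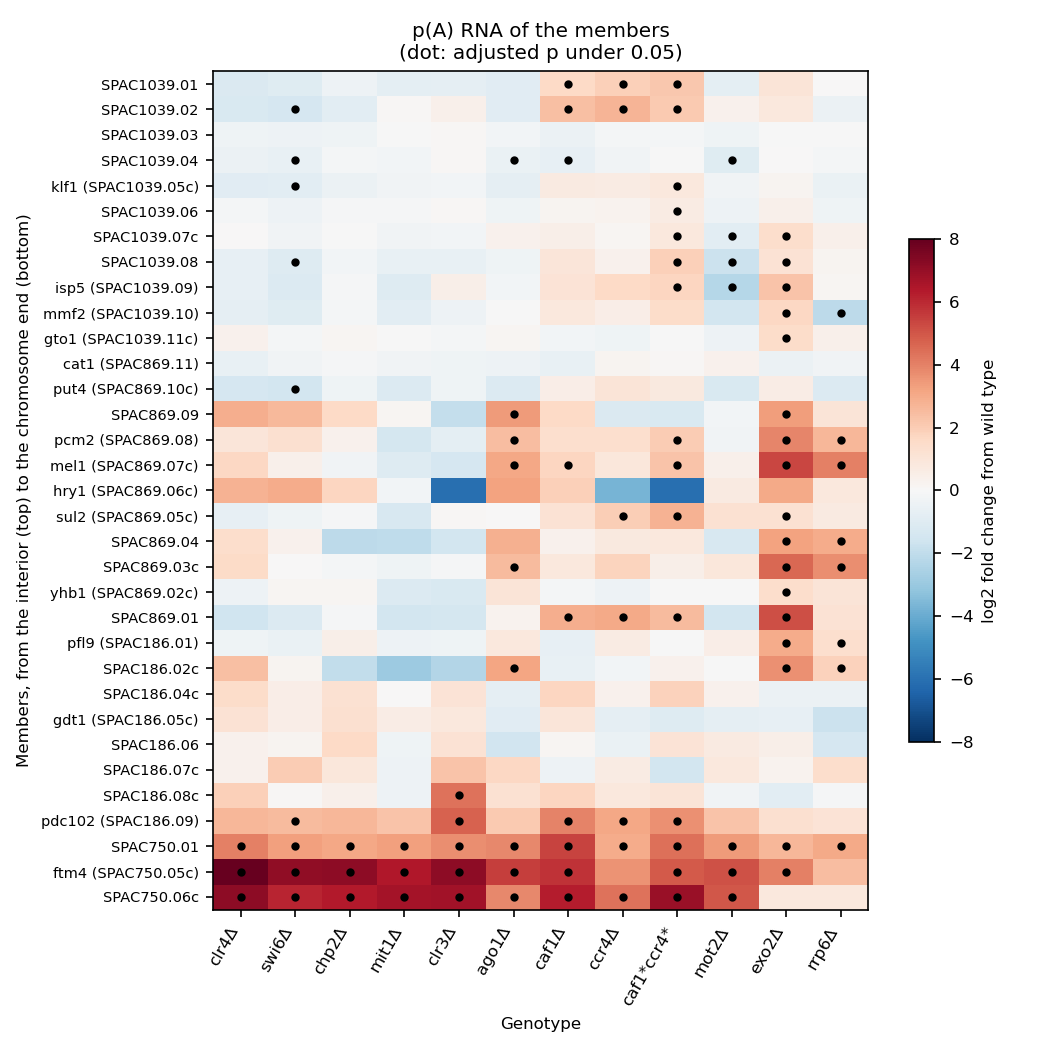
Fitted log2 difference from wild type in p(A) RNA for each tested member (rows, ordered along the chromosome) in each of 12 mutants (columns), with a dot at each adjusted p under 0.05. SPAC750.01 is called higher in 12 of 12 mutants, ftm4 and SPAC750.06c in 10, and mel1 in 5.

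SPAC750.01, the aldo/keto reductase gene 22.4 kb from the end (chrI:5555674-5556768, plus strand), was the member whose p(A) RNA rose in every mutant tested. Wild type had 3.08, 0.399, 3.21 and 3.38 TPM, the second being strain 65. The highest levels were in caf1Δ, with 119 and 168 TPM, caf1*ccr4*, with 72.3 and 62.1 TPM, clr4Δ, with 31.3 and 59.6 TPM, and ago1Δ, with 56.9, 23.9 and 33.7 TPM. In exo2Δ the levels were 14.8 and 17.9 TPM, in ccr4Δ 19.3 and 23.5 TPM and in chp2Δ 23.5, 14.8, 24.2 and 25.8 TPM. All 28 mutant libraries lay above all 4 wild-type libraries. The log2 differences ran from 2.63 in exo2Δ (SE 0.50, adjusted p = 6.46e-04) to 5.40 in caf1Δ (SE 0.52, adjusted p = 6.87e-07). None of these 12 calls was lost when any 1 library was left out, but 8 were lost when wild type was fitted with 1 mutant at a time, all but those in ago1Δ, caf1Δ, caf1*ccr4* and rrp6Δ. Cultures were measured in bulk, so more RNA per cell and more cells with the RNA cannot be told apart.

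ftm4, 11.9 kb from the end (chrI:5565881-5567240, minus strand), was close to silent in wild type, with 0, 0, 0.113 and 0.428 TPM of p(A) RNA (9 counts in all). The clr4Δ libraries had 43.6 and 36.6 TPM, swi6Δ 9.49, 20.7 and 27.0 TPM, chp2Δ 11.6, 30.0, 20.8 and 17.4 TPM, and clr3Δ 18.6 and 19.9 TPM. The levels were lower in caf1Δ, with 9.99 and 10.1 TPM, in caf1*ccr4*, with 6.57 and 3.99 TPM, and in ccr4Δ, with 2.60 and 0.899 TPM. The order of mutants was thus another than for SPAC750.01, where caf1Δ was highest, and the difference between the mutants was not tested. ftm4 rose in 10 of 12 mutants, and in CPM (counts scaled to library size) the clr4Δ libraries together were 308-fold above wild type (95% exact interval 161 to 677, counting error only). The exceptions were ccr4Δ (adjusted p = 0.071) and rrp6Δ (adjusted p = 0.10). In ago1Δ the libraries had 17.7, 0.380 and 0.785 TPM, and without the first of them the call was lost, as was that in exo2Δ without its second library. With 1 mutant at a time 6 of the 10 calls were lost, those in clr4Δ, swi6Δ, chp2Δ and clr3Δ being kept.

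SPAC750.06c, an uncharacterized gene 9.3 kb from the end (chrI:5568903-5569803, minus strand), had 2 counts over the 4 wild-type libraries. Its p(A) RNA was 13.9 and 6.08 TPM in clr4Δ, 12.0 and 7.02 TPM in caf1*ccr4*, and 6.27 and 6.50 TPM in caf1Δ. It was called higher in 10 of 12 mutants by edgeR. The ratio of CPM to wild type was 163 in clr4Δ (95% exact interval 43.7 to 1370) and 142 in caf1*ccr4* (38.0 to 1190), and 2.16 in exo2Δ (0.157 to 29.8) and 2.39 in rrp6Δ (0.173 to 33.0), the 2 mutants without a call. The call in ago1Δ was lost without its first library, that in ccr4Δ without either of its libraries, and that in mot2Δ with 1 mutant at a time.

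pdc102, the pyruvate decarboxylase gene (chrI:5552811-5554529, plus strand), was measured at 0.0899, 0.0977, 0.0959 and 0.0518 TPM in wild type. These levels rest on 2, 2, 2 and 1 counts, and those of swi6Δ below on 4, 11 and 9, so the size of its changes is uncertain. It rose in clr3Δ to 2.62 and 1.94 TPM (log2 difference 4.70, SE 0.69, adjusted p = 2.08e-04), in caf1Δ to 1.06 and 2.73 TPM (3.98), in caf1*ccr4* to 1.47 and 1.34 TPM (3.67), in ccr4Δ to 0.796 and 0.846 TPM (3.07) and in swi6Δ to 0.418, 0.606 and 0.509 TPM (2.51). With 1 mutant at a time the calls in caf1Δ and ccr4Δ were lost. The ccr4Δ call was lost without either ccr4Δ library, and the swi6Δ call without its second library or the first wild-type library. Every mutant library but 1 of ago1Δ, which had no count, lay above the wild-type libraries. Even the highest levels were far below those of SPAC750.01, although the neighbouring genes had similar H3K9me2 in wild type. SPAC186.08c, the lactate dehydrogenase gene next to pdc102 (singled out after its values were seen), was called higher in clr3Δ only, with 13.3 and 7.82 TPM against 0.623, 0.254, 0.830 and 0.359 TPM in wild type (log2 difference 4.35, SE 0.61, adjusted p = 1.26e-04).

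The remaining members among the 5 highest in H3K9me2 gave no call in p(A) RNA. SPAC186.07c had 0.155, 0.168, 0.330 and 0.178 TPM in wild type, 0.173 and 0.235 TPM in caf1Δ and 1.13 and 0.886 TPM in clr3Δ, and was called in 0 of 12 mutants by edgeR and by DESeq2, with 2 higher at an unadjusted p under 0.05. SPAC186.04c had 10.9, 1.13, 5.08 and 10.5 TPM in wild type, 47.4 and 11.9 TPM in caf1Δ and 32.1 and 28.7 TPM in caf1*ccr4*, and was called in 0 by edgeR, with 4 higher at an unadjusted p under 0.05, and in 1 by DESeq2. Of the 11 outer members tested, the 5 named above gave 38 of the 43 calls, and pfl9 and SPAC186.02c gave the other 5.

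The members pfl9 and SPAC186.02c, at the inner edge of the marked block, were called higher in exo2Δ and rrp6Δ, and SPAC186.02c also in ago1Δ. pfl9 had 5.06, 8.35, 5.83 and 10.9 TPM in wild type, 64.0 and 56.5 TPM in exo2Δ (log2 difference 2.96, SE 0.49, adjusted p = 1.76e-04) and 23.4 and 24.1 TPM in rrp6Δ (1.32, adjusted p = 0.040). At SPAC186.02c the log2 differences were 3.65 in exo2Δ, 1.83 in rrp6Δ and 3.16 in ago1Δ. At both genes the rrp6Δ call was lost without either rrp6Δ library, and at SPAC186.02c also with 1 mutant at a time. In the libraries of clr4Δ, swi6Δ, chp2Δ, mit1Δ and clr3Δ edgeR called neither gene higher, with 0 of 5 tests of pfl9 and 1 of 5 of SPAC186.02c at an unadjusted p under 0.05, and DESeq2 called 1, SPAC186.02c.

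Inner members lie outside the strongly marked block. Of the 22, 6 were still more than 2-fold above other genes in wild-type H3K9me2, among them mel1 (2.07-fold) and SPAC869.01 (6.31-fold). Inner calls upwards came from 6 of the 12 mutants. In exo2Δ 13 of 22 inner members rose and 0 fell (1 at an unadjusted p under 0.05, 0 by DESeq2). All members together gave 17 of 33, beside 12.8% of all features. In caf1*ccr4* 11 of 22 rose (15 of 33 members, 9.29% of all features), in caf1Δ and ccr4Δ 4 of 22 each (6.61% and 1.91%), and in ago1Δ and rrp6Δ 4 of 22 each (5.97% and 19.1%). For rrp6Δ the 7 of 33 members is thus near the share of all features. No inner member was called higher in swi6Δ, chp2Δ, mit1Δ, clr3Δ, clr4Δ or mot2Δ, where the shares of all features were 9.41%, 0.318%, 0.197%, 0.606%, 0.939% and 2.38%. There 6 of the 132 inner tests had an unadjusted p under 0.05 upwards, and DESeq2 called 3.

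mel1, the melibiase gene 77.9 kb from the end (chrI:5499782-5501236, plus strand), was the inner enzyme called in most mutants. Wild type had 1.16, 0.857, 0.505 and 0.606 TPM, exo2Δ 29.4 and 36.2 TPM, rrp6Δ 15.4 and 16.8 TPM, and ago1Δ 3.38, 9.19 and 9.60 TPM. The log2 differences were 5.34 in exo2Δ (SE 0.43, adjusted p = 1.40e-08), 4.01 in rrp6Δ (SE 0.42, adjusted p = 1.77e-07), 3.10 in ago1Δ, 2.26 in caf1*ccr4* and 1.75 in caf1Δ, the last of which was lost without the second caf1Δ library. With 1 mutant at a time the calls in caf1*ccr4* and caf1Δ were lost. Every library of these 5 mutants lay above the wild-type libraries. In mit1Δ (0.420 and 0.322 TPM) and clr3Δ (0.319 and 0.268 TPM) every library lay below them, with no call.

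Around mel1, pcm2 was called higher in 4 of its 5 mutants and hry1 in none. hry1, 75.8 kb from the end, was called in 0 of 12 mutants by edgeR and by DESeq2, with 3 higher at an unadjusted p under 0.05. pcm2, the methyltransferase gene 80.2 kb from the end, had 1.47, 0.862, 0.484 and 0.653 TPM in wild type, 13.3 and 14.3 TPM in exo2Δ (log2 difference 3.93) and 6.60 and 7.58 TPM in rrp6Δ (2.67), and rose also in ago1Δ (2.50) and caf1*ccr4* (2.03). The amidase gene SPAC869.01, at the edge of the marked block, had 0.203, 0.440, 0.734 and 1.87 TPM in wild type and 24.8 and 34.9 TPM in exo2Δ (5.14, SE 0.84, adjusted p = 1.58e-04). It rose also in ccr4Δ (3.02), caf1Δ (2.89) and caf1*ccr4* (2.50), and each of these 3 calls, like that of pcm2 in caf1*ccr4*, was lost without either library of the mutant and with 1 mutant at a time. The urea transporter gene SPAC869.03c (log2 difference 4.60) and the formamidase-like gene SPAC869.04 (3.25) were likewise called in exo2Δ and in rrp6Δ (3.71 and 3.00), those of SPAC869.04 only with both libraries of the mutant and not with 1 mutant at a time. In wild type SPAC869.03c had only 4, 2, 2 and 2 counts and SPAC869.04 only 3, 5, 0 and 0.

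SPAC1039.02, a phosphatase gene 127.5 kb from the end (chrI:5449668-5451642, plus strand), was called higher in caf1Δ, ccr4Δ and caf1*ccr4*. It had 99.5, 296, 393 and 245 TPM in wild type, 1751 and 1761 TPM in caf1Δ, 1462 and 2179 TPM in ccr4Δ and 1186 and 1450 TPM in caf1*ccr4*. These libraries did not overlap with wild type, and the log2 differences were 2.38 (SE 0.37), 2.71 (SE 0.37) and 2.08 (SE 0.37). All 3 calls were lost when wild type was fitted with 1 mutant at a time. In mot2Δ, with 498 and 293 TPM, it was not called, and in swi6Δ, with 50.5, 148 and 118 TPM, it was called lower (-1.33, adjusted p = 0.019), though not without the first swi6Δ library. The amino acid permease gene SPAC1039.01 rose in the same 3 mutants, by 1.56 to 2.17, in ccr4Δ only with both libraries, in caf1Δ only with the first and in none of them with 1 mutant at a time.

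sul2, the sulfate transporter gene 70.4 kb from the end (chrI:5505599-5508782, plus strand), had 21.5, 17.4, 49.9 and 48.0 TPM in wild type and 282 and 304 TPM in caf1*ccr4* (log2 difference 2.80, SE 0.41, adjusted p = 8.60e-05). In ccr4Δ it had 99.2 and 189 TPM (1.95) and in exo2Δ 82.7 and 79.5 TPM (1.19, adjusted p = 0.039). The proline transporter gene put4 had 14.8, 30.7, 73.2 and 60.3 TPM in wild type and was called in swi6Δ only, lower, with 5.18, 21.5 and 24.5 TPM (-1.44), libraries that overlap with wild type. SPAC1039.06, a D-serine ammonia-lyase gene, had 25.3 to 35.2 TPM in wild type and was called in caf1*ccr4* only, higher by 0.63 (adjusted p = 0.020). The calls of put4 and SPAC1039.06 and that of sul2 in exo2Δ were lost without some single library of the mutant, and that of sul2 in ccr4Δ without its second. The calls of sul2 in ccr4Δ and exo2Δ and those of put4 and SPAC1039.06 were lost with 1 mutant at a time. Over the 7 transporters 11 of 84 tests were called higher (13.1%) and 6 lower (7.14%), and over the 18 tested enzymes 47 of 216 were higher (21.8%) and 5 lower (2.31%). Of all tests of all features 5.80% were higher and 4.77% lower.

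The 12 calls downwards were all of inner members, 5 of 33 tested in swi6Δ, 4 in mot2Δ and 1 each in ago1Δ, caf1Δ and rrp6Δ. The shares of all features called lower in these mutants were 8.17%, 2.55%, 3.21%, 6.97% and 16.4%. In mot2Δ they were isp5 (-2.26), SPAC1039.08, a serine acetyltransferase gene (-1.71), the carboxylic acid transporter SPAC1039.04 (-0.96) and the transaminase SPAC1039.07c (-0.85). None of the 12 was called under every alternative fit.

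**Figure D3:**
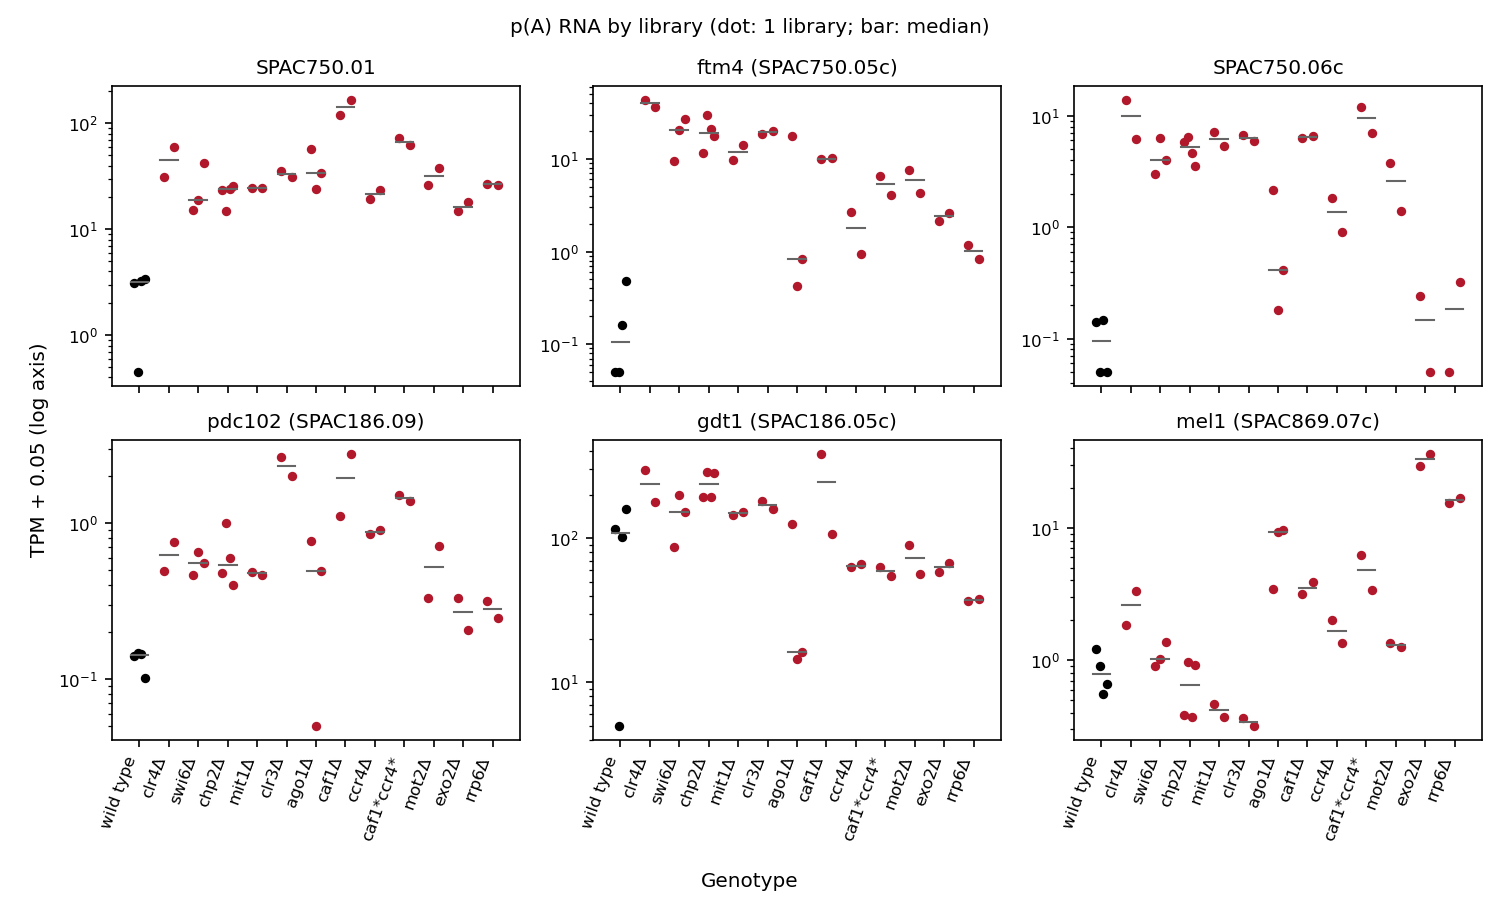
p(A) RNA level of 6 members (TPM with 0.05 added, log axis) in each library, grouped by genotype, with 1 point per library and a bar at the median. SPAC750.01 lies at 0.399 to 3.38 TPM in wild type and at 14.8 to 168 TPM in the 28 mutant libraries, and mel1 is highest in exo2Δ at 29.4 and 36.2 TPM.

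RNA bound to Pol II showed fewer calls, most of them at ftm4 and SPAC750.01. Of 372 tests over 31 members in Pol II RIP, 18 were called higher and 0 lower, against 0.966% and 1.08% of all tests of all features, with 3 lower at an unadjusted p under 0.05 and 0 by DESeq2. Outer members gave 15 calls in 132 tests and inner members 3 in 240. Without the first wild-type library, which leaves 1, 4 calls were left, and with 1 mutant at a time there were 12.

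ftm4 gave 10 of the 18 calls. Both wild-type libraries had 0 counts. The 3 clr4Δ libraries had 15.9, 15.6 and 37.6 TPM, caf1Δ 24.8 and 7.54 TPM, ago1Δ 16.7 and 11.0 TPM, and mot2Δ 9.69, 15.4, 9.85 and 4.78 TPM. Against a floor of 3 counts over both wild-type libraries, the CPM level was at least 37.3-fold higher in clr4Δ, at least 24.8-fold higher in caf1Δ and at least 18.1-fold higher in mot2Δ. In exo2Δ (1.40 and 2.96 TPM) and rrp6Δ (0 and 3.45 TPM) there was no call. In clr4Δ, swi6Δ, chp2Δ, mit1Δ, clr3Δ, ago1Δ and mot2Δ ftm4 was the member called, 1 of 31, beside 0.336%, 0.168%, 0.199%, 0.153%, 0.336%, 0.352% and 0.734% of all features. Of its 10 calls, 8 were lost without the first wild-type library and 7 with 1 mutant at a time, those in ago1Δ, caf1*ccr4* and caf1Δago1Δ being kept.

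SPAC750.01 had 25.5 and 36.2 TPM of Pol II-bound RNA in wild type. In caf1Δ it had 490 and 548 TPM (log2 difference 3.95, SE 0.66, adjusted p = 0.0010), in caf1Δago1Δ 432, 334 and 428 TPM (3.67, SE 0.64, adjusted p = 5.00e-04) and in caf1*ccr4* 456 and 240 TPM (3.38, SE 0.66, adjusted p = 0.0035). The single caf1Δdcr1Δ library had 820 TPM and the single ccr4Δ library 98.1 TPM, with no test. The clr4Δ libraries, with 171, 194 and 58.5 TPM, and the swi6Δ libraries, with 179, 198 and 117 TPM, also lay above wild type without a call. The calls in caf1Δ and caf1*ccr4* were lost without the first wild-type library.

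In total 4 members were called in caf1Δago1Δ, 3 in caf1*ccr4* and 2 each in caf1Δ and exo2Δ, beside 4.42%, 1.91%, 0.367% and 1.06% of all features. sul2, at 75.8 and 70.4 TPM in wild type, rose to 486 and 326 TPM in caf1*ccr4* (log2 difference 2.30, SE 0.41, adjusted p = 0.0018) and to 287 and 306 TPM in exo2Δ (2.01, SE 0.41, adjusted p = 0.0078). pfl9, at 5.17 and 2.31 TPM, rose to 51.7 and 38.3 TPM in exo2Δ (3.46, adjusted p = 0.016) and to 20.5, 34.8 and 30.8 TPM in caf1Δago1Δ (2.76, adjusted p = 0.017). mel1, at 2.49 and 0 TPM, was called in caf1Δago1Δ, with 13.9, 33.7 and 65.1 TPM. It was not called in exo2Δ, with 18.0 and 15.6 TPM. The calls of pfl9 and mel1, and that of sul2 in exo2Δ, were lost without either wild-type library.

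Calls in Pol II itself were fewer still outside 1 mutant. In Pol II ChIP, 35 members in 12 mutants gave 16 calls upwards and 6 downwards in 420 tests, against 2.21% and 2.31% of all tests. Of the 16, 12 were in caf1Δago1Δ, where 16.5% of all features were called higher. They were 7 of 13 outer members and 5 inner ones, pcm2, mel1, hry1 (SPAC869.06c), SPAC869.03c and SPAC869.01, by 1.25 to 2.85 on the log2 scale. The other 4 were SPAC750.01, ftm4 and sul2 in caf1*ccr4* (5.80% of all features) and sul2 in exo2Δ (1.81%). All 4 of these calls were lost when wild type was fitted with 1 mutant at a time.

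**Figure D4:**
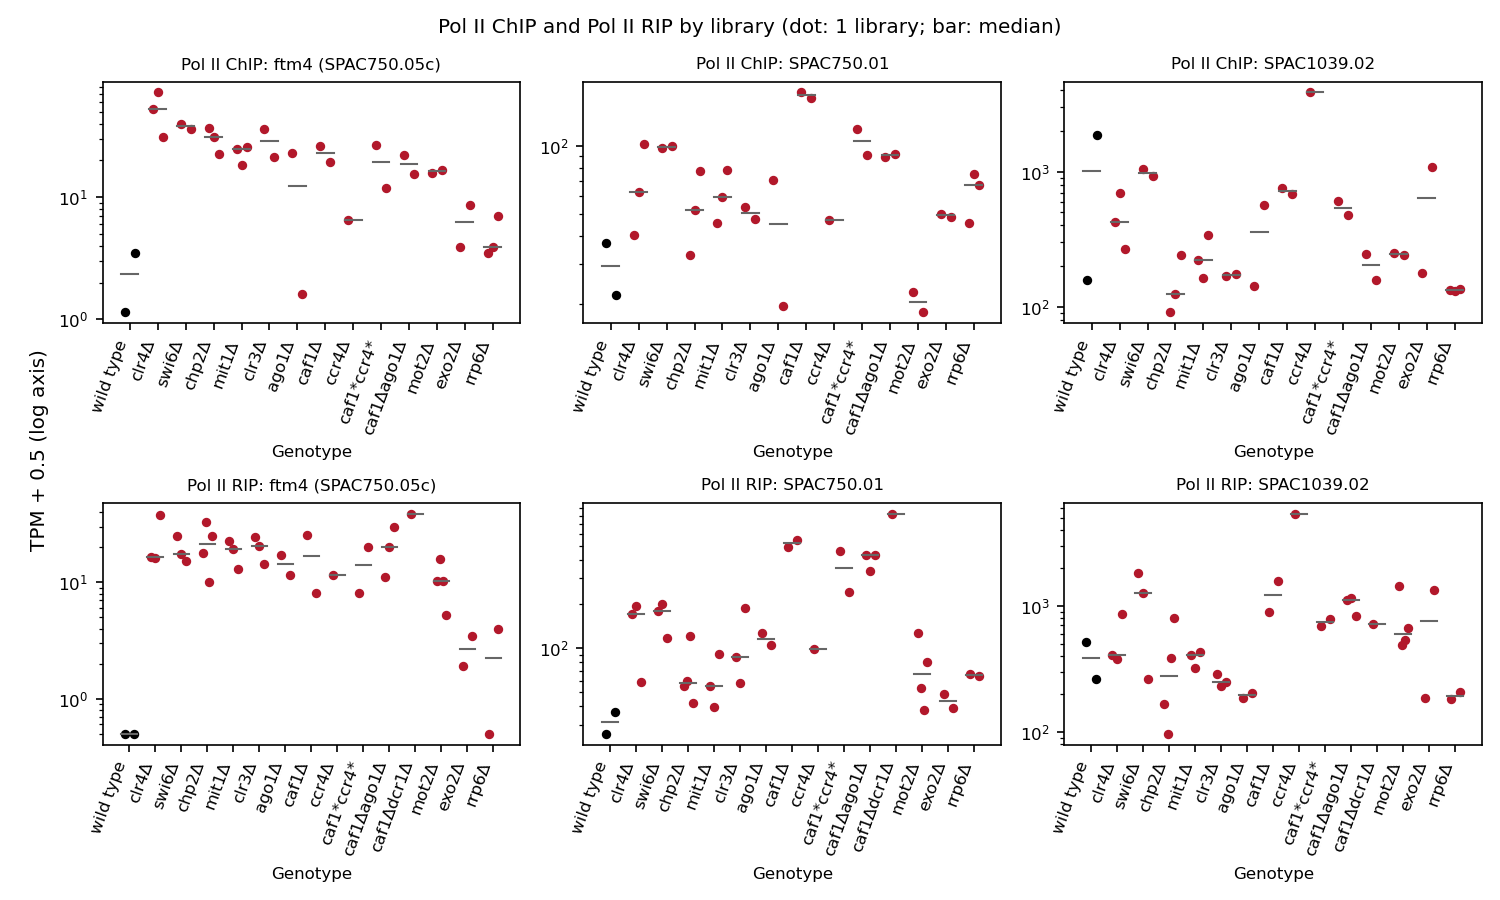
Levels of ftm4, SPAC750.01 and SPAC1039.02 in Pol II ChIP (top) and Pol II RIP (bottom), as TPM with 0.5 added on a log axis, with 1 point per library and a bar at the median of each genotype. SPAC750.01 lies at 36.5 and 21.3 TPM in wild-type ChIP and at 172 and 163 TPM in caf1Δ, and at 25.5 and 36.2 against 490 and 548 TPM in RIP.

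At SPAC750.01 wild type had 36.5 and 21.3 TPM of Pol II, caf1Δ 172 and 163 TPM, caf1*ccr4* 119 and 90.7 TPM and swi6Δ 97.4 and 99.7 TPM. It was called in caf1*ccr4* (log2 difference 1.95, SE 0.49, adjusted p = 0.021) and caf1Δago1Δ (1.25, SE 0.48, adjusted p = 0.046). For caf1Δ the log2 difference was larger, 2.58 (SE 0.49), and the adjusted p was 0.053. The mot2Δ libraries, with 22.0 and 17.8 TPM, did not rise above wild type, although their p(A) RNA, at 25.9 and 37.9 TPM, was called higher. At ftm4 wild type had 0.644 and 3.02 TPM of Pol II and clr4Δ 52.0, 71.6 and 30.5 TPM (log2 difference 4.73, SE 0.91, adjusted p = 0.21). In 8 mutants ftm4 had an unadjusted p under 0.05 without a call, and it was called in caf1*ccr4* (3.32) and caf1Δago1Δ (2.85).

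At SPAC750.06c and pdc102, where p(A) RNA rose in many mutants, Pol II ChIP showed no call outside caf1Δago1Δ, in which pdc102 was called. SPAC750.06c had 4.69 and 4.44 TPM of Pol II in wild type and 5.71, 4.82 and 9.94 TPM in clr4Δ, and pdc102 had 43.7 and 23.5 TPM in wild type and 33.4 and 29.4 TPM in clr3Δ, with no call in those mutants. sul2 had 75.1 and 168 TPM in wild type. In caf1*ccr4* it had 221 and 233 TPM (1.00, SE 0.28, adjusted p = 0.035) and in exo2Δ 267 and 291 TPM (1.17, SE 0.28, adjusted p = 0.027). It was thus called in all 3 assays in both mutants. Both Pol II ChIP calls of sul2, and its p(A) RNA call in exo2Δ, were lost with 1 mutant at a time. The 6 calls downwards were put4 in mot2Δ (-2.60), SPAC1039.06 in mot2Δ (-1.06) and rrp6Δ (-1.17), SPAC1039.04 in mot2Δ (-0.73), SPAC1039.02 in caf1Δago1Δ (-2.72) and SPAC186.02c in caf1*ccr4* (-1.79). All features were called lower in 1.08% of tests in mot2Δ, 1.31% in rrp6Δ, 20.7% in caf1Δago1Δ and 3.08% in caf1*ccr4*.

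Some Pol II ChIP libraries stood apart, and they carried most of these calls. In 5 libraries (both of caf1Δago1Δ, the third replicates of mit1Δ, rrp6Δ and chp2Δ) the ratio of the 90th to the 10th percentile of density over other protein-coding genes was 1.64 to 1.81, against 3.60 to 7.55 in the other 26. The median level of the 13 outer members was 90.1 to 117 TPM in those 5 and 4.70 to 49.0 TPM in the others, and the centromeric core regions took 125 and 164 CPM in caf1Δago1Δ, against 79.2 and 32.4 in wild type. The mit1Δ and rrp6Δ libraries were left out of the test by a rule on replicate correlation. The part of this flatter profile in the caf1Δago1Δ calls was not tested. Without the caf1Δago1Δ libraries 4 calls upwards were left, the same number as without its strain 524 library alone. None of the 22 Pol II ChIP calls of members was kept in every fit that left out 1 library.

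**Figure D5:**
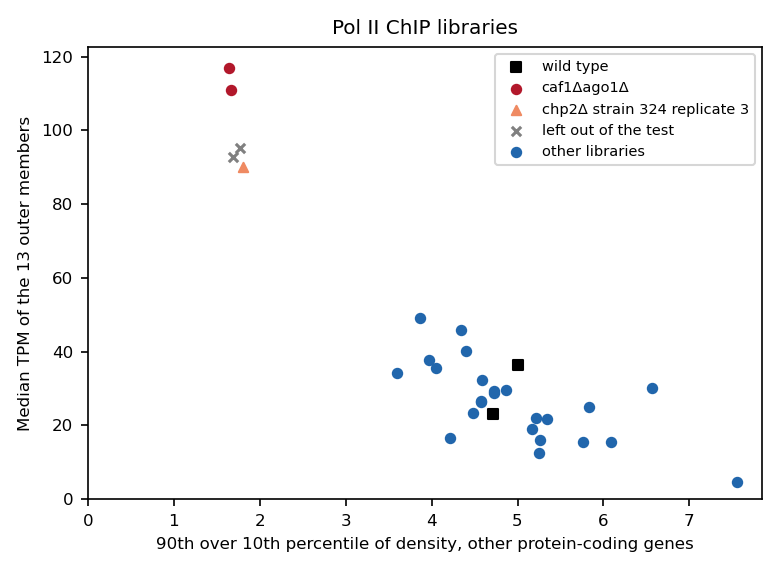
Median Pol II ChIP level of the 13 outer members (TPM) against the ratio of the 90th to the 10th percentile of density over other protein-coding genes, 1 point per Pol II ChIP library. The 5 libraries with ratios of 1.64 to 1.81 have outer medians of 90.1 to 117 TPM, and the other 26 lie at or below 49.0 TPM.

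The wild-type Pol II ChIP libraries differed at several inner members. SPAC1039.02 had 157 TPM in strain 63 and 1852 TPM in strain 65, put4 44.1 and 524 TPM, isp5 26.7 and 307 TPM, and SPAC1039.01 91.1 and 634 TPM. The libraries differed by more than 3-fold at 7 of 35 members (20.0%) and at 1.33% of 5031 other protein-coding genes. Strain and library cannot be told apart here, with 1 library each. Leaving out the strain 63 library raised the calls downwards from 6 to 41 and cut the calls upwards to 3, and leaving out the strain 65 library moved put4 in mot2Δ from -2.60 to 0.09. In these fits the remaining wild-type library is taken to vary like the other groups.

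The ratio of the mean RIP level to the mean ChIP level, called transcription efficiency, was computed where every library had at least 10 counts, and no test was made. Unlike in the paper, scaled input was not subtracted from the ChIP levels used here. At SPAC750.01 it was 1.07 ± 0.42 for wild type (SD, n = 4 combinations of 1 RIP and 1 ChIP library, which are not independent), 3.10 ± 0.22 in caf1Δ (4), 3.33 ± 1.33 in caf1*ccr4* (4), 4.40 ± 0.55 in caf1Δago1Δ (6) and 3.71 ± 1.88 in mot2Δ (8). In exo2Δ it was 0.888 ± 0.122 (4), below the wild-type value. The wild-type ChIP level of SPAC750.01 was low, at percentile 2.25 of other protein-coding genes, and both caf1Δago1Δ ChIP libraries had the flatter profile described above. Over all pairs of a member and a mutant that could be computed, 69 were more than 2-fold above wild type and 1 below. The 4 members SPAC1039.01, SPAC1039.02, isp5 and put4, whose wild-type ChIP levels differed between strains, gave 44 of the 69. RNA stability, the ratio of mean p(A) RNA to mean Pol II RIP level, was more than 2-fold above wild type in 4 of 160 pairs and below in 22. For neither measure was the share over all features computed, so these counts do not say whether the members differ from other genes. When the strain 65 ChIP library was left out, the pairs above wild type in both measures together went from 73 to 22 and those below from 23 to 34.

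Other chromosome ends were counted in the same way. On the left end of chromosome I, 86 of 336 tests in p(A) RNA were called higher and 6 lower, and at the ends of chromosome II 52 of 336 and 11, beside 83 of 396 and 12 here. In the RIP the counts were 52 of 300 at the left end of chromosome I, 11 of 276 on chromosome II and 18 of 372 here. The left end holds genes for which reads with several matches were counted, which the right end does not, and the difference between ends was not tested. In H3K9me2 of caf1Δ the 30 counted left-end genes, marked or not, had a median difference of -1.78 from wild type, beside -1.13 for all 35 counted members here and -7.63 for the 13 outer ones.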

How the data were processed

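The data were 130 libraries of 15 S. pombe genotypes. According to the study's methods, the authors aligned reads with STAR 2.7.3a to a PomBase genome, removed ribosomal reads and assigned the rest to features with extended htseq-count code, stranded for RNA and unstranded for ChIP. The deposited values are raw counts per feature, with replicates kept apart and blank cells read here as 0. Reads with several matches were kept by the authors only in listed heterochromatic genes, none of which is at this chromosome end. Input DNA and total RNA libraries had 815040 to 14233053 and 771954 to 6703361 counts, and no pair of replicates, 85 compared, was identical.

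Positions, roles and sequences came from RefSeq ASM294v3. All 39 genes were matched by identifier, but only 9 had the same length as in the files, so the builds may differ. The 3 core-centromere regions were left out of totals and tests. TPM were computed from the counts and the file's gene lengths over protein-coding genes, repeats and members. H3K9me2 was expressed as log2 of H3K9me2 over input CPM with 0.5 counts added.

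Each assay was fitted once over all genotypes with edgeR 4.0.16 (quasi-likelihood F-test, TMM, R 4.3.3, limma 3.58.1), after a filter that kept features reaching 10 counts in 2 libraries or more, two-sided, with Benjamini-Hochberg adjustment over all of them. Genotypes with 1 library in an assay (ccr4Δ in Pol II ChIP and RIP, caf1Δdcr1Δ in RIP) were not tested. Where a genotype had 3 or more libraries in an assay, those with a Spearman correlation under 0.8 with every other replicate were left out. These were replicate 3 of mit1Δ and of rrp6Δ in Pol II ChIP. Genotypes with 2 libraries were kept whole, whatever their correlation. In simulated p(A) RNA counts of 6600 genes, 200 were changed in clr4Δ. Of these, 66 of 100 changed 2-fold and 96 of 100 changed 4-fold were recovered. The counts were simulated with the same fixed spread for every gene, not estimated from the data. The recovered shares therefore do not say how many such changes would be found at genes with a larger spread. Named genes were the 5 members highest in wild-type H3K9me2, the 8 called in most mutants in p(A) RNA and the largest call of each mutant in each assay. Members and gene lists were chosen with earlier results of these data known, and the inner and outer blocks were set by identifier. Alternatives were RLE normalization, DESeq2 1.42.0, no filter, protein-coding genes only, 1 mutant at a time, a replicate block, an input offset and leaving out each library. Other steps used Python 3.11.15, pandas 2.3.3, numpy 2.4.6, scipy 1.17.1 and matplotlib 3.10.9.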

Additional observations from a re-analysis of the deposited data

Results flagged for a closer look

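In 8 of the 56 groups examined, each of 4 libraries, 1 library stood far from the others. The rule used has a nominal rate of about 1 group in 20. The groups share libraries and several hold few counts, so that rate does not give the number to expect by chance. In Pol II RIP put4 was at 237 TPM in chp2Δ replicate 4 and at 41.8 to 69.4 TPM in the other chp2Δ libraries. In the same assay pcm2 was at 10.2 TPM in mot2Δ replicate 5 and at 0 to 0.513 TPM in the others, which is 2 counts against 0, 1 and 0. In p(A) RNA 1 library, chp2Δ replicate 2, was high at 3 members, with 1.44 TPM of SPAC186.07c (the others 0 to 0.086), 2.11 TPM of SPAC869.01 (0.247 to 0.495) and 3.03 TPM of pcm2 (0.36 to 0.63). In the wild-type p(A) RNA libraries SPAC186.07c was high in strain 63 replicate 3, at 0.33 TPM (0.155 to 0.178), pdc102 was low in strain 63 replicate 4, at 0.0518 TPM (0.0899 to 0.0977), and SPAC750.01 was low in strain 65, at 0.399 TPM (3.08 to 3.38). For SPAC186.07c this is 4 counts against 2 in each other library, and for pdc102 1 count against 2, so both flags rest on very few reads.

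The total RNA libraries, 2 per genotype, entered no test, and above only their wild-type values of gdt1 were given. The 2 libraries of a genotype had Spearman correlations of 0.735 in clr4Δ, 0.79 in caf1Δ, 0.797 in wild type and 0.832 in ago1Δ. The rule on replicate correlation was not applied to such pairs. Over all members 29 of 105 pairs of a member and a mutant (27.6%) had both libraries above both of wild type, close to the 26.4% over all features with a count. By mutant these were 6 of 35 members and 1074 of 6719 features in clr4Δ, 9 members and 2110 features in ago1Δ, and 14 members and 2136 features in caf1Δ. Outer members gave 16 of 39 pairs and inner members 13 of 66, and the wild-type libraries themselves differed widely at some members, as at SPAC869.09, with 3279 and 0 counts. The values that follow are of the 8 members called in the most mutants in p(A) RNA, of whose 24 pairs 14 lay above wild type, and no test was made. SPAC750.01 had 112 to 203 TPM in caf1Δ, 104 to 169 TPM in clr4Δ and 24.9 to 51.8 TPM in ago1Δ, against at most 15.1 TPM in wild type. ftm4 had 6.62 to 7.33 TPM in clr4Δ, 4.29 to 5.84 TPM in caf1Δ and 0.31 to 1.56 TPM in ago1Δ, and SPAC750.06c had 1.21 to 2.29 TPM in clr4Δ and 1.44 to 2.96 TPM in caf1Δ, both with no count in wild type. pdc102, also with no count in wild type, had 2.24 to 5.03 TPM in clr4Δ and 0.727 to 13.4 TPM in caf1Δ. Of the inner members, SPAC869.01 had 2.38 to 4.97 TPM in ago1Δ and 1.91 to 1.97 TPM in caf1Δ (wild type at most 0.35 TPM), and SPAC1039.02 had 147 to 208 TPM in ago1Δ and 268 to 1446 TPM in caf1Δ (at most 73.0 TPM).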

How the results depend on the processing

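In Pol II ChIP the 16 calls upwards were 26 with DESeq2, 6 with log input as an offset and 4 without the caf1Δago1Δ libraries. When any 1 library was left out they ranged from 3 (without wild-type replicate 1) to 23 (without ago1Δ replicate 1), with 4 without caf1Δago1Δ strain 524. With the offset 87.8% of all calls were upwards, against 48.9% in the reported fit, and the median of all features moved by 0.15 on the log2 scale. The 6 calls downwards were 15 with DESeq2, 0 with 1 mutant at a time, 3 with the low-correlation libraries kept, and 3 (without wild-type replicate 3 or mot2Δ replicate 1) to 41 (without wild-type replicate 1) when 1 library was left out, with 12 without chp2Δ replicate 3 or caf1*ccr4* replicate 2 and 10 without chp2Δ replicate 1. In Pol II RIP the 18 calls upwards were 8 without ftm4 and 4 (without wild-type replicate 1) to 21, and the 0 calls downwards were 1 without either caf1Δ library. In p(A) RNA the 83 calls upwards were 35 with 1 mutant at a time, 51 without the members with recurring windows and 71 to 94 when 1 library was left out. The 12 downwards were 19 with DESeq2, 0 with 1 mutant at a time and 8 to 15. With 1 mutant at a time 75.9% of all p(A) RNA calls were upwards, against 54.8%. Of the H3K9me2 ratios, 102 pairs of a member and a mutant were more than 2-fold above wild type and 1 after centring each library on other genes. Efficiency and stability together gave 73 pairs above wild type, and 22 (without wild-type replicate 3) to 101 (without wild-type replicate 1) when 1 wild-type ChIP library was left out. The cause of these shifts was not tested.

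Replicate numbers were shared between genotypes without a stated meaning. Same-numbered libraries had median correlations of deviations of 0.035, 0.002 and 0.032 in Pol II ChIP, Pol II RIP and p(A) RNA, and those over 0.1 were 58 of 148, 56 of 166 and 65 of 163, so the numbers were not taken as pairs. With the number as a block there were 22 calls upwards and 3 downwards in Pol II ChIP, 21 and 0 in Pol II RIP and 100 and 11 in p(A) RNA. Of the calls 39 of 83 upwards in p(A) RNA, 9 of 18 in Pol II RIP and 7 of 16 in Pol II ChIP were kept in every alternative fit. Of those downwards, 0 of 12 in p(A) RNA and 0 of 6 in Pol II ChIP were. The alternatives without caf1Δago1Δ, without ftm4, without recurring windows and with centring were among 6 chosen after seeing the data. Depth limits ftm4 and SPAC750.06c, with 9 and 2 wild-type counts in p(A) RNA. It also limits other members, among them pdc102 (2, 2, 2 and 1 counts in the wild-type libraries), SPAC869.03c (4, 2, 2 and 2) and SPAC869.04 (3, 5, 0 and 0).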

Other observations

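Single libraries and unequal replicates held further values of these genes. The single caf1Δdcr1Δ library of Pol II RIP had 820 TPM of SPAC750.01 and 38.1 TPM of ftm4, the highest of all Pol II RIP libraries for both. The single ccr4Δ library had 5348.5 TPM of SPAC1039.02 in Pol II RIP. SPAC186.08c, the lactate dehydrogenase gene, had 5.70, 12.6 and 151 TPM in the 3 clr3Δ libraries of Pol II RIP. In total RNA the wild-type libraries differed at 2 inner members, with SPAC869.09, a Con-6 family gene, at 4794 and 0 TPM and hry1 at 2733 and 0.304 TPM, and the clr4Δ libraries had 6.38 and 1622 TPM of SPAC869.09 and 0 and 613 TPM of hry1.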
